A study of Homo sapiens with 24 samples.

Results

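The genes described here are 10 that make and seal new DNA at the replication fork. They were chosen by name, with earlier results of these data known. They are POLA1, POLA2 and PRIM1 of DNA polymerase alpha-primase, POLD1, POLD2 and POLD3 of polymerase delta, POLE and POLE2 of polymerase epsilon, the flap endonuclease FEN1 and the DNA ligase LIG1. All 10 were found among the 25277 gene symbols of the deposited table, and all 10 were among the 13622 symbols tested. The cells were DU145DR and 22Rv1DR, described in the labels as aggressive sublines of DU145 and 22Rv1, which are human prostate cancer cell lines; both were grown in RPMI medium with serum. In each line a Control arm, whose agent the labels do not describe, was compared with siPOM121 construct 1 (s59623) and siPOM121 construct 2 (s19145), short interfering RNAs against POM121, a nucleoporin of the nuclear pore. The labels call the siPOM121 arms knockouts, and they give no time after treatment. Poly(A) RNA was sequenced from 12 libraries, 2 for each of the 6 groups, and each library was read on 2 lanes. Whether the 2 libraries of a group were made from separate cultures is not stated, so the p-values reflect spread between libraries that may be technical.

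Polymerase alpha-primase lays down a short primer of RNA and DNA, polymerase epsilon extends the leading strand, and polymerase delta extends the lagging strand in short Okazaki fragments. FEN1 then trims the flap left at the end of each fragment, and LIG1 joins the fragments. Transcripts of these genes are made mainly as cells enter S phase, when E2F factors bind their promoters, and they are abundant in dividing cancer cells.

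The promoters are shown because E2F is the best known regulator of this group. Any part of E2F in the changes in 22Rv1DR was not tested. RefSeq promoters of build GRCh38.p14, running from 250 bases before to 50 bases after the transcription start, were matched for 9 of the 10 genes, all but POLD3. They were searched on both strands for the E2F words TTTCCCGC, TTTCGCGC, TTTGCCGC and TTTGGCGC. Of the 9 promoters, 5 held one of these words (55.6%), against 3.33% of 27305 promoters and 5.34% of the 9901 promoters whose symbols were tested. Those of PRIM1, POLD1, POLD2 and FEN1 held none. The 5 stretches of 80 bases around the words follow, 5′ to 3′ on the strand of the gene, with the word in capitals; they lie at chrX:24693745-24693824 (plus strand) for POLA1, chr11:65261873-65261952 (plus strand) for POLA2, chr12:132687323-132687402 (minus strand) for POLE, chr14:49688195-49688274 (minus strand) for POLE2 and chr19:48170415-48170494 (minus strand) for LIG1.
POLA1: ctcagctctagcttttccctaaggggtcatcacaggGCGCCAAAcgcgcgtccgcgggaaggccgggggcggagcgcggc
POLA2: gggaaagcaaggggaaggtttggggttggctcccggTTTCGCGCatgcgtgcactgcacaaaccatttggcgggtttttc
POLE: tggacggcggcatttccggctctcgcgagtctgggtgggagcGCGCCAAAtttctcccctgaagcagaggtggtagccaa
POLE2: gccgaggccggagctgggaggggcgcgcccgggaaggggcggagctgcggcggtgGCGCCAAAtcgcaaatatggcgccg
LIG1: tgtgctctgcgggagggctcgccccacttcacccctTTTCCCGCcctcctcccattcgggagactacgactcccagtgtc
In POLA1, POLE and POLE2 the word reads TTTGGCGC on the opposite strand, so it appears as its reverse complement. The leftmost base in capitals lies 137, 53, 18, 5 and 114 bases before the start of POLA1, POLA2, POLE, POLE2 and LIG1. The CCAAT word bound by NF-Y was in the promoters of POLA1, PRIM1, POLD2 and POLE, and overlapped no E2F word. These 4 of 9 stand against 35.7% of all promoters and 36.65% of those whose symbols were tested. The E-box CACGTG was in 1 of 9, that of FEN1, against 7.43% of all and 10.29% of those tested. The word TTTGAA of late cell cycle promoters was in 0 of 9, against 15.4% of all and 9.19% of those tested. These matches describe letters in the window and no binding was measured.

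Levels are given in FPKM, which scales the fragments of a gene by its transcript length and the size of the library, so they can be compared between genes. The level of a group is the power of 2 of its mean log2 FPKM. The depth of the libraries is unknown because the files hold no counts. Within each library, the lanes differed by a median of 0.05 on the log2 scale over the 10 genes, and by 0.19 at most (POLD3). POM121 fell in both lines, with log2 fold changes of -0.67 and -0.74 for constructs 1 and 2 in DU145DR and of -2.30 and -2.43 in 22Rv1DR. Between 11884 and 12569 symbols were above the floor of 1 FPKM in each sample. In the table, 8 of 9 markers of blood, endothelial and stromal cells were listed at 0 in every group, the exception being COL1A1. Of 4 epithelial markers, EPCAM, KRT8, KRT18 and the cadherin CDH1, only CDH1 was listed at 0 in DU145DR. CDH1 was above the floor in 22Rv1DR. The sum of the 4 was 115.1 to 122.4 FPKM in DU145DR controls and 652.1 to 653.6 in 22Rv1DR controls. The construct 2 libraries of 22Rv1DR, 4C and 5C, differed most within a group: the median absolute difference was 0.15 on the log2 scale, against 0.04 to 0.06 in the other groups. Ribosomal protein genes held up to 18.4% of summed FPKM in 4C and down to 11.99% in 5C. The construct 2 changes of the 10 genes in 22Rv1DR, and of some genes of the other lists, are therefore also given without each of them. Lanes 1 and 2 carried every DU145DR library and the 22Rv1DR control 4A, and lanes 3 and 4 carried the rest of 22Rv1DR.

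In both control groups POLD2 had the highest level and POLA1 and POLD3 the lowest (the plot of FPKM by library). The order in DU145DR controls was POLD2 (122 FPKM), POLD1 (56.1), FEN1 (44.0), POLE2 (32.7), PRIM1 (28.7), POLA2 (24.03), LIG1 (20.8), POLE (17.5), POLD3 (12.3) and POLA1 (7.56). No neighbours in that order overlapped between the control libraries. In 22Rv1DR controls the order was POLD2 (158.5 FPKM), FEN1 (52.3), POLD1 (35.4), PRIM1 (31.0), POLA2 (25.1), LIG1 (25.0), POLE (21.2), POLE2 (12.3), POLA1 (8.25) and POLD3 (8.20). There POLA2 and LIG1 overlapped, as did POLA1 and POLD3.

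Between the control lines, the large differences lay in the accessory subunit POLE2 and in polymerase delta. POLE2 stood at 32.1 and 33.4 FPKM in the DU145DR control libraries and at 12.6 and 12.02 in those of 22Rv1DR, a log2 difference of -1.41 ± 0.05 (SE; limma adjusted p = 1.41e-09). POLD1, the catalytic subunit of polymerase delta, was also lower in 22Rv1DR, by a log2 difference of -0.67 ± 0.07 (limma adjusted p = 1.05e-05), as was POLD3, a subunit that binds the sliding clamp, at -0.59 ± 0.11 (limma adjusted p = 0.000677). Called higher in 22Rv1DR were POLD2 (0.38), POLE (0.28), LIG1 (0.26) and FEN1 (0.25), while POLA1 (limma adjusted p = 0.0557), POLA2 and PRIM1 were not called. POLA1 lay at the threshold and was called in 11 of 23 alternatives, and with quantile normalization all 10 genes were called, POLA2 at 0.21 (limma adjusted p = 0.00918) and PRIM1 at 0.26 (adjusted p = 0.0403). These 3 genes lower and 4 higher stand against 42.7% of all genes called lower and 40.3% called higher in this comparison, so a call between the lines was the usual case. The call for FEN1 was lost without the control library 5A (adjusted p = 0.0561), which leaves lanes 1 and 2 only, and without 2A (adjusted p = 0.0938). The FPKM ratio of POLE2 to its catalytic partner POLE was 1.88 in DU145DR controls and 0.581 in 22Rv1DR controls. The ratio of POLD2 to POLD1 was 2.18 and 4.48. Subunits of 1 enzyme therefore stood in different transcript ratios in the lines, while the ratio of POLA2 to POLA1 was 3.18 and 3.04.

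**Figure D1:**
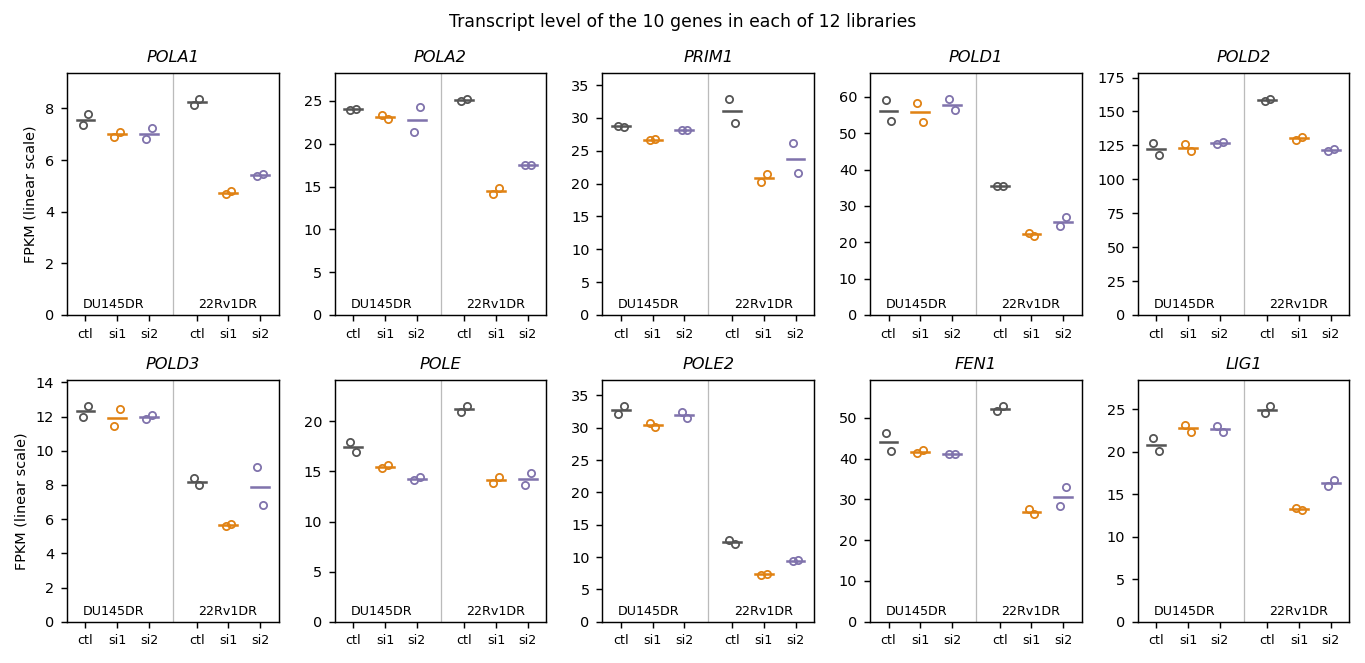
FPKM (linear scale from 0) of each of the 10 genes in the 12 libraries, with 1 open point per library, the mean of its lanes, and a bar at the group level; ctl is control, si1 and si2 are constructs 1 and 2. In 22Rv1DR the construct 1 points lie below both control points for every gene, while in DU145DR the groups lie close together.

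In 22Rv1DR all 10 genes fell with construct 1, to between 51.6% of the control level for FEN1 and 82.2% for POLD2. With construct 2, 9 of 10 fell, all but POLD3, and FEN1 again had the lowest share of control (58.5%). None was higher with either construct. The share of all genes called lower was 15.2% with construct 1 and 20.6% with construct 2, and 12% and 14.5% were called higher. Because the 10 genes were chosen with earlier results of these data known, these shares are a setting and no test of the list. The median log2 fold change of the 10 genes was -0.71 with construct 1 and -0.49 with construct 2, against 0.00 and -0.03 over all genes tested. Both constructs were set against the same control libraries, so these results share their controls. Without control library 4A, so that all 22Rv1DR libraries come from lanes 3 and 4, all 10 fell with construct 1 and 8 with construct 2. Without 4C, all 10 lay below control with construct 2, and without 5C, 9 did, all but POLD3. The log2 fold changes without 4C and without 5C were -0.60 and -0.61 for POLA1, -0.52 and -0.52 for POLA2, -0.37 and -0.40 for POLD2 and -0.37 and -0.38 for POLE2, so these 4 genes moved little. They were -0.40 and -0.53 for POLD1, -0.52 and -0.64 for POLE, -0.67 and -0.88 for FEN1 and -0.58 and -0.65 for LIG1, each further from 0 without 5C. PRIM1 and POLD3 moved most and are given with their values.

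Of polymerase alpha-primase, the catalytic subunit POLA1 stood at 8.14 and 8.36 FPKM in the controls, at 4.70 and 4.78 with construct 1 and at 5.40 and 5.45 with construct 2. The groups did not overlap, and both siPOM121 groups lay below the controls. POLA1 fell to 57.5% of control with construct 1 (95% CI 52.8% to 62.6%; limma adjusted p = 2.30e-05) and to 65.7% with construct 2 (95% CI 60.3% to 71.6%; adjusted p = 0.000182). POLA2, the regulatory B subunit, stood at 25.0 and 25.2 FPKM in the controls, 14.2 and 14.8 with construct 1, and 17.5 and 17.6 with construct 2. Its log2 fold changes were -0.79 ± 0.06 (limma adjusted p = 3.43e-05) and -0.52 ± 0.06 (adjusted p = 0.000467). PRIM1, the catalytic subunit of the primase, varied more among libraries: 32.9 and 29.3 FPKM in the controls, 20.3 and 21.4 with construct 1, and 26.3 and 21.6 with construct 2. All siPOM121 libraries were still below both controls, with log2 fold changes of -0.57 ± 0.09 (limma adjusted p = 0.00152) and -0.38 ± 0.09 (adjusted p = 0.00952). The construct 2 change of PRIM1 was -0.52 without 4C and -0.24 without 5C, called in both. Without control library 4A, which leaves 1 pair of lanes, the PRIM1 change with construct 2 was -0.30 and no longer called (limma adjusted p = 0.0718). It was also not called when libraries were weighted by their noise (limma adjusted p = 0.0602), nor when 22Rv1DR was fitted alone, with either construct (adjusted p = 0.0813 and 0.138).

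In polymerase delta the subunits fell by unequal amounts. POLD1 stood at 35.4 FPKM in both controls, at 22.6 and 21.7 with construct 1 and at 24.4 and 26.9 with construct 2. It fell to 62.7% of control (95% CI 56.1% to 70.0%; limma adjusted p = 0.000215) and to 72.4% (95% CI 64.9% to 80.9%; adjusted p = 0.00149). POLD2, the B subunit that bridges the catalytic subunit and POLD3, stood at 158 and 159 FPKM in the controls, at 129 and 131 with construct 1 and at 121 and 122 with construct 2. With construct 1 its change was the smallest of the 10, a log2 fold change of -0.28 ± 0.05 (limma adjusted p = 0.00207), and with construct 2 it was -0.38 ± 0.05 (adjusted p = 0.000576). With construct 1, 12.6% of all genes had a fold change below that of POLD2, and 0.514% had one below that of FEN1. POLD3 stood at 8.40 and 8.004 FPKM in the controls and at 5.61 and 5.69 with construct 1, a log2 fold change of -0.54 ± 0.11 (limma adjusted p = 0.00674). With construct 2 its libraries lay on both sides of the controls, at 9.05 FPKM in 4C and 6.84 in 5C, and the change was -0.06 with a 95% CI of -0.31 to 0.19 (limma adjusted p = 0.747). That value rests on 4C and 5C alike: the change was -0.26 without 4C and 0.14 without 5C. Its sign therefore depends on the library left out, and the values cannot show which library is the deviant one. The call for POLD3 with construct 1 was lost when 22Rv1DR was fitted alone (limma adjusted p = 0.125).

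Both subunits of polymerase epsilon fell with each construct. The catalytic subunit POLE stood at 20.9 and 21.5 FPKM in the controls, at 13.8 and 14.5 with construct 1 and at 13.6 and 14.8 with construct 2. The siPOM121 groups overlapped each other and lay well below the controls, at 66.6% of control (95% CI 61.1% to 72.7%; limma adjusted p = 0.000131) and 67.0% (95% CI 61.4% to 73.0%; adjusted p = 0.000242). POLE2 stood at 12.6 and 12.02 FPKM in the controls, at 7.29 and 7.36 with construct 1 and at 9.44 and 9.50 with construct 2. Its change with construct 1, -0.75 ± 0.05 (limma adjusted p = 1.23e-05), was about the size of that of POLA1 and POLA2. Its change with construct 2 was -0.38 ± 0.05 (limma adjusted p = 0.000602).

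The enzymes that finish Okazaki fragments had the largest falls. FEN1 stood at 51.6 and 52.9 FPKM in the controls, at 27.5 and 26.4 with construct 1 and at 28.3 and 33.0 with construct 2. It fell to 51.6% of control with construct 1 (95% CI 46.0% to 57.9%; limma adjusted p = 4.00e-05) and to 58.5% with construct 2 (95% CI 52.1% to 65.6%; adjusted p = 0.000229). LIG1 stood at 24.5 and 25.4 FPKM in the controls, at 13.4 and 13.1 with construct 1 and at 16.0 and 16.7 with construct 2. It fell to 53.1% of control (95% CI 49.0% to 57.6%; limma adjusted p = 9.53e-06) and to 65.4% (95% CI 60.4% to 70.9%; adjusted p = 0.00014). FEN1 and LIG1 thus ranked first and second among the 10 with either construct, although with construct 2 the intervals of LIG1, POLA1 and POLE overlapped widely.

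**Figure D2:**
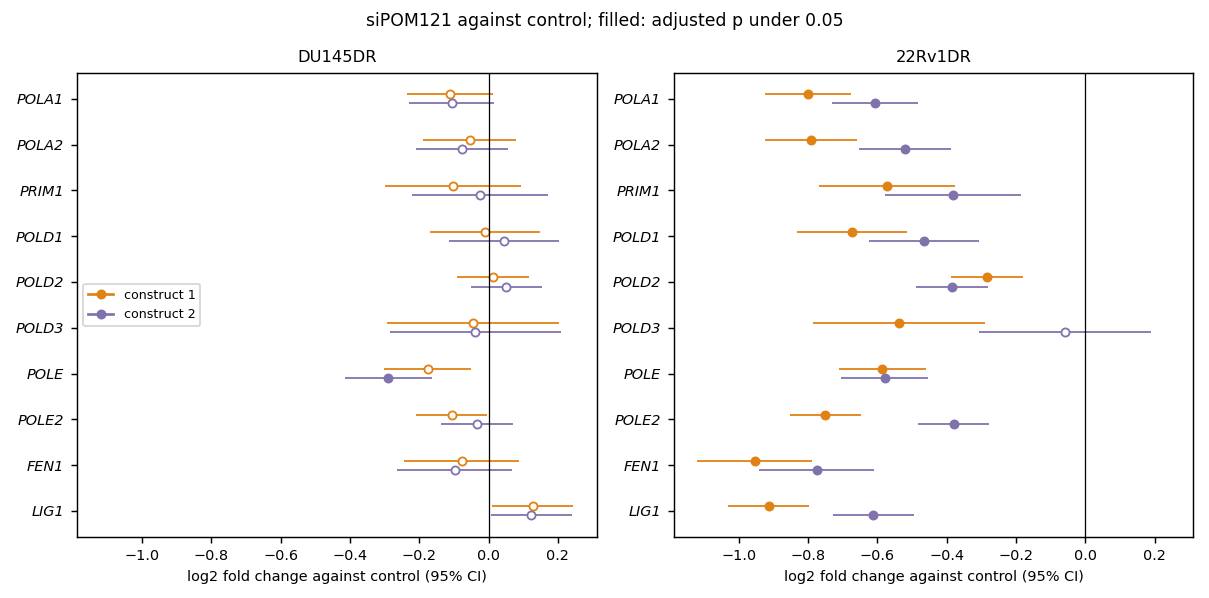
Log2 fold change of siPOM121 against control (horizontal axis) for each gene in DU145DR (left) and 22Rv1DR (right), with 95% confidence intervals from limma and filled points where the adjusted p is under 0.05. In 22Rv1DR 19 of 20 points are filled and below 0, with POLD3 under construct 2 the exception, and in DU145DR only POLE under construct 2 is filled.

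**Figure D3:**
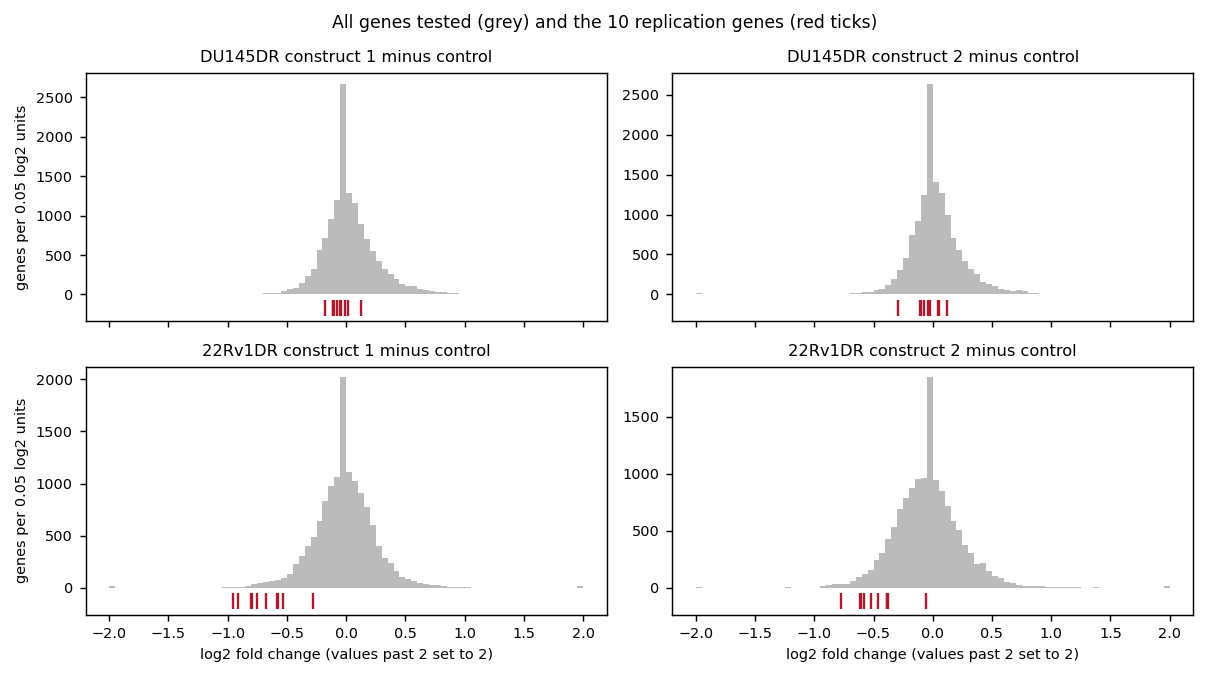
Number of genes tested (vertical axis) by log2 fold change against control (horizontal axis, values past 2 drawn at 2) in the 4 comparisons with control, with the 10 genes as red ticks. In 22Rv1DR with construct 1 every tick lies left of 0, from -0.95 to -0.28, and in DU145DR the ticks lie between -0.29 and 0.13.

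In DU145DR the same transcripts differed little from control. With construct 1, 0 of the 10 passed the limma test, against 7.62% of all genes called lower and 12.2% called higher. At an unadjusted p under 0.05, 3 of the 10 and 4509 of all genes passed. With construct 2, only POLE passed, and it fell; 5.62% of all genes were called lower and 11.0% higher. Among the genes called with construct 2 in DU145DR 66.1% were higher, and with quantile normalization the share was 54.4%. The median log2 fold change of the 10 was -0.07 with construct 1 and -0.04 with construct 2.

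POLE stood at 17.9 and 17.0 FPKM in the DU145DR controls, at 15.3 and 15.6 with construct 1 and at 14.1 and 14.5 with construct 2. All 4 siPOM121 libraries were below both controls. The log2 fold change was -0.29 ± 0.06 with construct 2 (limma adjusted p = 0.00822) and -0.18 ± 0.06 with construct 1 (adjusted p = 0.0542). The first call was lost without control library 1A (-0.25, limma adjusted p = 0.0681) or without 1C (-0.27, adjusted p = 0.0595). The value for construct 1 was called without 4C or without 5C of the other line (limma adjusted p = 0.0122 for each), whose spread enters the shared estimate. LIG1 lay above control in this line: it stood at 21.6 and 20.1 FPKM in the controls, 23.1 and 22.4 with construct 1, and 23.0 and 22.4 with construct 2. Those changes, 0.13 ± 0.05 and 0.12 ± 0.05, did not pass (limma adjusted p = 0.119 and 0.141). Without control library 2A they were 0.076 and 0.072, and the construct 1 change was called with array weights (limma adjusted p = 0.0429).

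For the other 8 genes in DU145DR the changes lay between -0.11 and 0.05 on the log2 scale with either construct. Their 95% intervals ran from -0.30 (PRIM1, construct 1) to 0.21 (POLD3, construct 2). FEN1, the gene with the largest fall in 22Rv1DR, stood at 46.4 and 41.8 FPKM in the DU145DR controls, at 41.4 and 42.1 with construct 1 and at 41.0 and 41.2 with construct 2. Its construct 1 values overlapped the controls, and its change was -0.08 (95% CI -0.24 to 0.09; limma adjusted p = 0.543). POLA1 stood at 7.35 and 7.78 FPKM in the controls and between 6.82 and 7.23 in the 4 siPOM121 libraries, all of them below the controls, with changes of -0.11 for each construct (limma adjusted p = 0.193 and 0.227). POLD1 and POLD2, at 53.2 to 59.4 FPKM and 117.8 to 127.6 FPKM over the 6 libraries of this line, overlapped the controls with both constructs.

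The effects themselves differed between the lines. Construct 1 had a more negative effect in 22Rv1DR than in DU145DR for 9 of the 10 genes, and construct 2 for 8 of 10, by a test of the interaction in the same limma fit. Over all genes, 11.9% were called more negative and 6.50% more positive in 22Rv1DR with construct 1, and 13.2% and 7.90% with construct 2. With quantile normalization the share of more positive effects among those called moved from 35.3% to 47.2% and from 37.5% to 49.7%. LIG1 had the largest difference, -1.04 ± 0.07 with construct 1 (limma adjusted p = 9.73e-05) and -0.74 ± 0.07 with construct 2 (adjusted p = 0.00114). FEN1 followed with -0.88 and -0.68. POLD2 had the smallest called difference with construct 1 (-0.30) and POLE the smallest with construct 2 (-0.29). Not called were POLD3 with construct 1 (-0.49, limma adjusted p = 0.0562), PRIM1 with construct 2 (-0.36, adjusted p = 0.0673) and POLD3 with construct 2 (-0.02, adjusted p = 0.937). The POLD3 difference with construct 1 was called without 4C or without 5C, construct 2 libraries that do not enter its fold (limma adjusted p = 0.00168 and 0.00165). It was also called with array weights (0.00137) and on the lower-numbered lanes (0.0239). The PRIM1 difference with construct 2 was -0.50 and called without 4C (limma adjusted p = 0.00384). Other calls lay near the threshold. PRIM1 with construct 1 was lost without any 1 of 1A, 2A, 1B, 2B, 4A, 4B or 5B (limma adjusted p from 0.066 to 0.106), and POLD2 with construct 1 without 2A, 1B, 5A or 4B (adjusted p from 0.0513 to 0.0606). Their differences ran from -0.55 to -0.38 and from -0.35 to -0.24 over all libraries left out in turn. POLE with construct 2 was lost without any 1 of the 6 DU145DR libraries or the 22Rv1DR controls 4A and 5A (limma adjusted p from 0.0502 to 0.111), and its difference ran from -0.35 to -0.23. For the other 6 genes with both constructs, POLA1, POLA2, POLD1, POLE2, FEN1 and LIG1, the line difference was called whichever library was left out. With construct 2, POLA2 was lost with array weights (limma adjusted p = 0.0510), where 6 of 10 were called, and POLE2 on the higher-numbered lanes (adjusted p = 0.0564). The knockdown differed too, since POM121 transcript fell further in 22Rv1DR, and its part in the line difference was not tested.

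The constructs were compared directly within each line, on libraries that share no control. In 22Rv1DR 4 of the 10 genes were higher with construct 2 than with construct 1 and 0 were lower, against 7.30% of all genes called higher and 4.28% called lower. The 4 were POLD3 (0.48 ± 0.11, limma adjusted p = 0.0261), POLE2 (0.37 ± 0.05, adjusted p = 0.00242), LIG1 (0.30 ± 0.05, adjusted p = 0.00926) and POLA2 (0.27 ± 0.06, adjusted p = 0.0217). The POLD3 difference was 0.28 without 4C and 0.68 without 5C. POLE differed by 0.01 with a 95% CI of -0.12 to 0.13, and POLD2 had the only negative value (-0.10, limma adjusted p = 0.174). The count was the least stable of the counts in 22Rv1DR. It moved when 4B, 5B, 4C or 5C was left out, which leaves 1 library in a group, and without 5C the calls over all genes rose too. POLE2 stayed between 0.36 and 0.38 when any 1 library was left out. With 22Rv1DR fitted alone, 0 of the 10 genes and 71 of all genes were called, against 1577 of all genes as reported. With libraries weighted by their noise, 0 of the 10 were called. In DU145DR the difference between constructs was called for 0 of 10, with changes from -0.11 (POLE) to 0.08 (PRIM1); 0.0147% of all genes were called lower and 0.00734% higher. At an unadjusted p under 0.05, 0 of the 10 and 725 of all genes passed there.

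**Figure D4:**
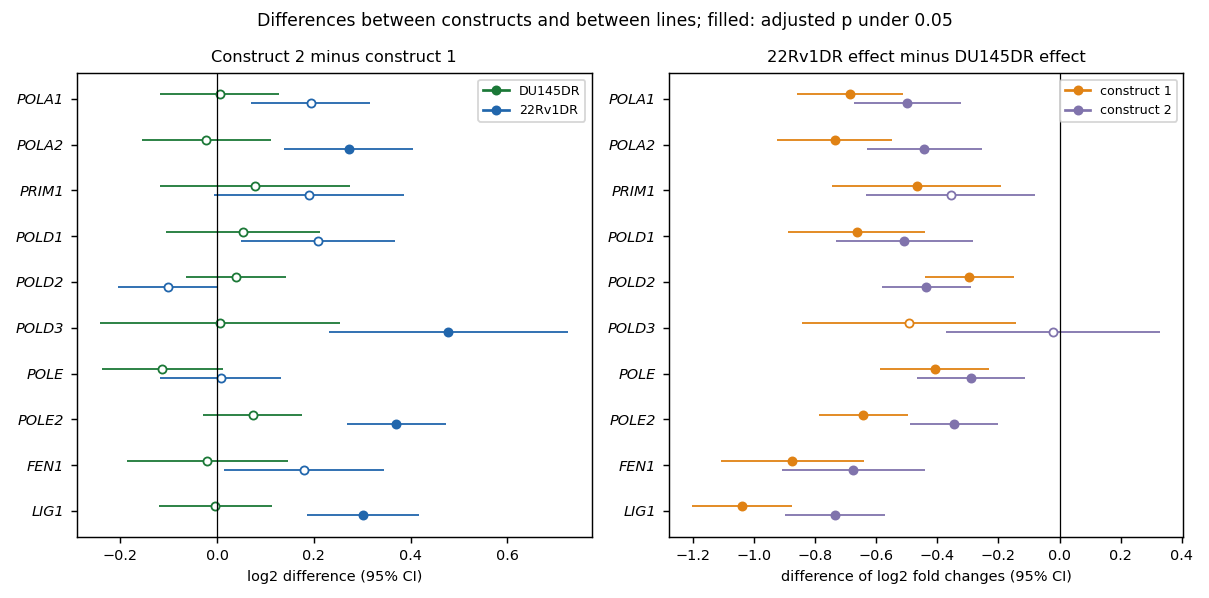
Left, log2 difference of construct 2 minus construct 1 in each line; right, the 22Rv1DR log2 fold change minus that of DU145DR for each construct; bars are 95% confidence intervals from limma, and filled points have an adjusted p under 0.05. On the right 17 of 20 points are filled and below 0, and on the left 4 of the 22Rv1DR points are filled, from 0.27 to 0.48.

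The other genes of the replication machinery give the setting of these values. Of the 4 remaining subunits of the same polymerases, 2 were called lower with construct 1 in 22Rv1DR, POLE3 (-0.36) and POLE4 (-0.17), and 1 with construct 2, POLE3 (-0.28). Over all genes 15.2% and 20.6% were called lower, so 1 of 4 with construct 2 is near that share. POLE3 and POLE4 are small histone-fold subunits of polymerase epsilon. PRIM2, the large primase subunit, was at -0.23 and -0.13, and POLD4, the smallest subunit of polymerase delta, at 0.03 and 0.13; neither passed with either construct (limma adjusted p from 0.0687 to 0.758). Without 4C and without 5C, the construct 2 changes in 22Rv1DR were -0.22 and -0.34 for POLE3, -0.06 and -0.21 for PRIM2 and 0.15 and 0.10 for POLD4. In DU145DR POLE3 fell with construct 1 (-0.23), against 7.62% of all genes called lower. POLD4 rose there with construct 2 (0.19), against 11.0% of all genes called higher.

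Of the 6 genes of the sliding clamp and its loader, 5 fell with construct 1 in 22Rv1DR, against 15.2% of all genes called lower. RFC4, the other one, was listed at 0 and is not counted as a fall. With construct 2, 2 fell, PCNA and RFC2, against 20.6% of all genes called lower. The count rose when either 4C or 5C was left out, and without 5C the share over all genes rose too. Without 4C and without 5C, PCNA was at -0.43 and -0.28 and RFC2 at -0.23 and -0.22. PCNA, the clamp that holds polymerase delta and FEN1 on DNA, stood at 200 FPKM in the controls, 114 with construct 1 and 156 with construct 2 (log2 fold changes of -0.81 and -0.36; limma adjusted p = 0.000196 and 0.0109). RFC4, a loader subunit, had this 0 in all construct 1 samples of 22Rv1DR and stood at 43.2 FPKM in the controls and at 38.5 with construct 2; no fold is given because a 0 can be a value that was not estimated. In DU145DR 1 of the 6 was called lower with construct 1, RFC3, which is named after its value was seen, and 0 with construct 2 by limma. Over all genes 7.62% and 5.62% were called lower there.

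Of the 8 genes for single-strand binding and primer removal, 6 fell with each construct in 22Rv1DR, against 15.2% and 20.6% of all genes called lower. RPA3, named after its values were seen, was at -0.21 with construct 2 and was not called. Its change was -0.75 without 4C and 0.33 without 5C, so its sign depends on the library left out. RNASEH2A and RNASEH2C, subunits of the RNase H2 that removes RNA primers, changed by -0.71 and -0.72 with construct 1 and by -0.41 and -0.36 with construct 2. RPA1, the large subunit of the single-strand binding protein, changed by -0.40 and -0.34. In DU145DR 1 of the 8 fell with construct 1, RNASEH2C (-0.19, limma adjusted p = 0.0484), and 0 passed with construct 2. The shares of all genes called lower there were 7.62% and 5.62%.

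The 15 polymerases and ligases of repair, mitochondria and translesion synthesis, with their partners, had calls in both directions in 22Rv1DR, as all genes tested did. With construct 1, 4 of 15 fell and 2 rose, against 15.2% of all genes lower and 12% higher. With construct 2, 2 fell and 2 rose, against 20.6% and 14.5%. Without 5C the construct 2 counts rose, and so did the shares called over all genes. The medians were 0.00 and -0.04 on the log2 scale. XRCC1, the partner of the repair ligase LIG3, fell with each construct (-0.46 and -0.34), as did POLM (-0.28 and -0.32), a polymerase of end joining. POLK, a translesion polymerase, rose with each (0.44 and 0.46; limma adjusted p = 0.00192 and 0.00141). POLQ, the polymerase of theta-mediated end joining, fell with construct 1 (-0.55) and was at 0.08 with construct 2. In DU145DR 0 of the 15 passed with either construct by limma. Over all genes 7.62% were called lower and 12.2% higher with construct 1, and 5.62% and 11.0% with construct 2.

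**Figure D5:**
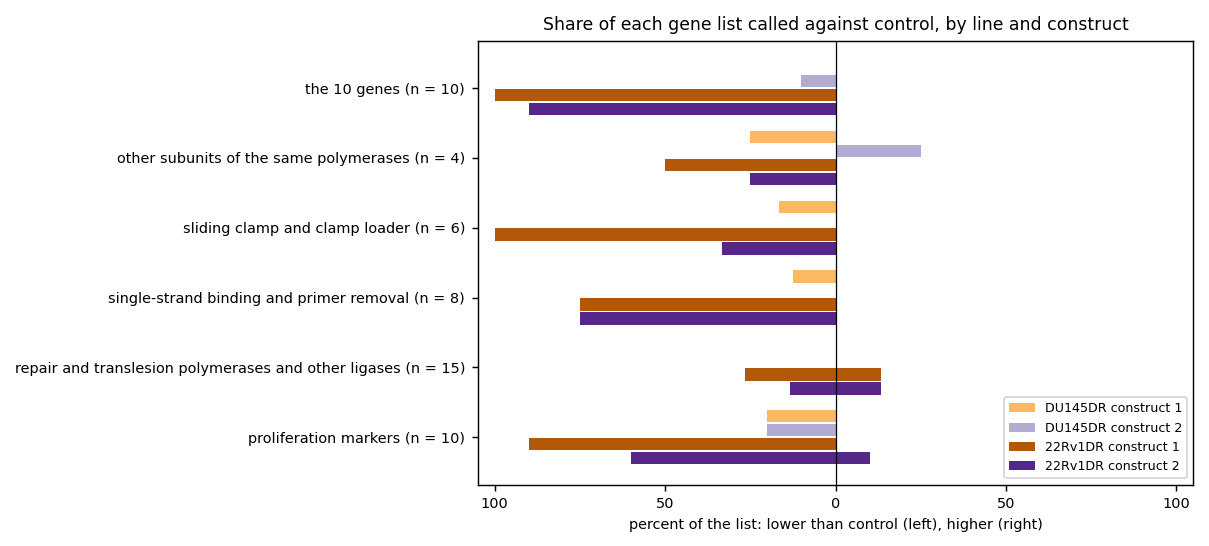
Percent of each gene list (horizontal axis) called lower (to the left) or higher (to the right) than control in the 4 comparisons with control; bar colours give line and construct. The 10 genes reach 100% and 90% lower in 22Rv1DR, while the 15 repair and translesion genes have bars on both sides of 0. The full bar of the sliding clamp and its loader includes RFC4, which is listed at 0 with construct 1.

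Most markers of dividing cells also fell in 22Rv1DR, but with construct 2 by less than the 10 genes. The median log2 fold change of the markers was -0.64 with construct 1 and -0.26 with construct 2, against -0.71 and -0.49 for the 10 genes. Of 10 proliferation markers, 9 were called lower with construct 1, and 6 lower and 1 higher with construct 2. Their summed level was 403.8 to 412.2 FPKM in the control libraries, 268.9 to 274.2 with construct 1 and 352.5 to 395.1 with construct 2, and none was listed at 0. The sum of the 10 replication genes was 377.3 to 377.5, 258.7 to 261.2 and 270.5 to 274.6 FPKM in the same groups. E2F1, a transcription factor of S phase entry, changed by -0.88 and -0.36 (limma adjusted p = 3.61e-05 and 0.00388), TOP2A, a topoisomerase of dividing cells, by -0.68 and -0.34, and the mitotic kinase PLK1 by -0.68 and -0.57. CDK1, named after its values were seen because it is the 1 marker that rose, changed by -0.37 with construct 1 and 0.34 with construct 2 (limma adjusted p = 0.0352). Without 4C the latter was 0.16, and without 5C it was 0.52. In the same fits CCNE2 was at -0.19 and 0.33 and CCNA2 at 0.04 and 0.12, both also named after their values were seen. In DU145DR 2 of the 10 fell with each construct, against 7.62% and 5.62% of all genes called lower, and E2F1 was at -0.02 and 0.04. The part of the proliferation markers in the replication genes' change was not tested. In bulk RNA, fewer cells in S phase and less transcript per cell cannot be told apart.

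Over the 12 libraries, each gene's log2 level was centred within its line and set against the mean of the other 9 genes. Pearson's r was 0.98 for POLA2 and POLA1, 0.91 or more for PRIM1, POLD1, POLE2, FEN1 and LIG1, 0.87 for POLE, 0.80 for POLD2 and 0.66 for POLD3. POLD3 and POLD2 thus followed the group least. The points share their libraries, and the spread is mostly that between 22Rv1DR controls and siPOM121 libraries. Among 8698 genes with a mean of at least 5 FPKM, the profiles most like the mean of the 10 were those of ZWINT (r = 0.995), MCM3 (0.994), KIF15 (0.994), CHAF1A (0.993) and UHRF1 (0.992). ZWINT is a kinetochore protein, MCM3 a subunit of the replicative helicase, KIF15 a mitotic kinesin, CHAF1A a histone chaperone at the fork and UHRF1 a reader of hemimethylated DNA.

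The libraries do not mark strand, so reads of overlapping genes cannot be told apart. In the GENCODE v29 annotation, used here only for overlaps, the exons of POLA1, POLD2, POLD3, POLE and POLE2 share no base with another gene. Exons of POLA2 and PRIM1 share 53.7% and 26.0% of their bases with an annotated gene on the same strand, and those of POLD1 12.1%. PRIM1 also shares 8.83% with HSD17B6 on the opposite strand. FEN1 shares 7.23% with TMEM258 on the opposite strand and 2.13% with FADS2 on the same strand, and LIG1 4.08% with an antisense gene.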

How the data were processed

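The deposited table gives log2 FPKM per gene symbol and sample; reads were processed with TopHat and Cufflinks and the builds hg19 and mm10, per the submitters' processing notes, and the human build applies here. In the deposited log2 values, 100% of powers of 2 have 6 significant digits, and values at or under 1 FPKM are 0. Where a symbol had several lines, that of highest mean level was used. Lanes were averaged per library. Symbols above the floor on both lanes of 2 or more of the 12 libraries were tested. limma 3.58.1 (R 4.3.3) was run with 1 mean per group over all 12 libraries (6 residual degrees of freedom; trend and robust options), with two-sided p-values adjusted by Benjamini-Hochberg over 13622 symbols and a threshold of 0.05, in 9 comparisons. It was tested on simulated data. n is 2 libraries a group. All 10 genes are named; from each list up to 4 genes with the smallest p over the construct comparisons are named, POM121, the 5 nearest profiles, and any others said to be chosen later. The members and lists were chosen with earlier results of these data known. Alternatives were other pseudocounts, no filter, quantile normalization, a replicate block, each line alone, single lanes, array weights, no trend or robust option, left-out libraries and, added after seeing the data, 4A and 4C left out together. Depth is unknown, so no counting interval is given. siRNA sequences were not used here.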

Additional observations from a re-analysis of the deposited data

Results flagged for a closer look

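The effect of siPOM121 differed between the lines in 17 of 20 comparisons of a gene and a construct. The call was an adjusted p under 0.05 by the interaction test in limma. The constructs share their control libraries, so these are not 20 separate tests. Over all genes, 11.9% were called more negative and 6.50% more positive in 22Rv1DR with construct 1, and 13.2% and 7.90% with construct 2. The calls of PRIM1 and POLD2 with construct 1 and of POLE with construct 2 were lost when some single libraries were left out. Each value is the 22Rv1DR log2 fold change minus that of DU145DR. With construct 1 it was -0.69 for POLA1, -0.74 for POLA2, -0.47 for PRIM1, -0.66 for POLD1, -0.30 for POLD2, -0.41 for POLE, -0.64 for POLE2, -0.88 for FEN1 and -1.04 for LIG1. With construct 2 it was -0.50 for POLA1, -0.44 for POLA2, -0.51 for POLD1, -0.44 for POLD2, -0.29 for POLE, -0.35 for POLE2, -0.68 for FEN1 and -0.74 for LIG1. POM121 itself fell further in 22Rv1DR than in DU145DR, and its part in these differences was not tested. Groups of 2 libraries are too small for a test of single outlying libraries.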

How the results depend on the processing

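Up to 24 alternatives were run for each value. In 22Rv1DR the 10 genes stayed below control with either construct under each of them, except POLD3 with construct 2, and no value of opposite sign passed the test. Construct 1 in DU145DR called 0 genes, but 1 with log2(FPKM + 1), quantile normalization, each line alone or both 22Rv1DR construct 2 libraries left out, 2 with array weights and 3 without 4A and 4C; leaving out 1 library gave 0 to 1. POLE with construct 2 there gave 0 to 1. The construct difference in 22Rv1DR called 4 genes, 0 with each line alone or array weights, and 1 (without 4B or 5B) to 6 when 1 library was left out. The replicate block left all counts as they were (0, 1, 0, 10, 9, 4, 9, 8 and 7 in the order of the comparisons). Same-numbered deviations correlated from -0.10 to 0.13 over genes, which cannot show whether same-numbered libraries were made together. FEN1 between control lines was called without the block and not with it (0.19, limma adjusted p = 0.0706) and POLA1 the reverse (limma adjusted p = 0.0451). Signs turned for values near 0, and the cause was not tested. With construct 1 in DU145DR, POLA2 was 0.045 and POLD2 -0.0086 on the higher-numbered lanes, POLD1 was 0.025 with quantile normalization and 0.030 on the lower-numbered lanes, and leaving out 1 library gave -0.084 to 0.064 for POLD1, -0.041 to 0.065 for POLD2 and -0.11 to 0.017 for POLD3. With construct 2 there, POLD1 was -0.0063 on the higher-numbered and POLD3 0.040 on the lower-numbered lanes, and leaving out 1 library gave -0.17 to 0.013 for POLA2, -0.030 to 0.12 for POLD1 and -0.0013 to 0.10 for POLD2. In 22Rv1DR, leaving out 1 library gave -0.26 to 0.14 for POLD3 with construct 2 and -0.054 to 0.068 for POLE between constructs, which was -0.017 on the higher-numbered lanes. The POLD3 line difference with construct 2 was 0.040 with quantile normalization, 0.080 on the higher-numbered lanes and -0.22 to 0.18 when 1 library was left out. Over all genes, calls moved by more than 1.5 times. They ran from 1299 to 4680 (2700 as reported) and 995 to 4148 (2258) for constructs 1 and 2 in DU145DR, 0 to 28 (3) between constructs there, 1485 to 6120 (3697) and 1516 to 7165 (4783) in 22Rv1DR, 71 to 5983 (1577) between constructs there, and 1294 to 4836 (2510) and 1200 to 6264 (2873) for the line differences. Depth is unknown, so what it limits cannot be stated.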
